A study of Mus musculus with 6 samples.

Results

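The genes described here encode the proteasome: the subunits of its core and of its regulatory particles, the factors that assemble it, and its activators and inhibitor. They were chosen by name, as every gene of the deposited expression table whose symbol starts with Psma, Psmb, Psmc, Psmd, Psme, Psmf or Psmg followed by a digit, which gave 50 of 21878 genes (0 of the names were pseudogene names with -ps). The 5 genes of the immunoproteasome, Psmb8, Psmb9, Psmb10, Psme1 and Psme2, were kept apart. Psmc3ip, a meiotic recombination factor that is no proteasome subunit, matches by name only and was left out of the counts, which left 44 genes as the standard proteasome set.

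RNA-seq was done on NIH3T3, an established mouse embryo fibroblast line, labelled with radiation injury and taken at 72 h. Exosomes (in the series title, derived from plasma) had been given to the cells of 3 libraries, and phosphate-buffered saline (PBS) to those of the other 3. Both groups carry the same injury label, and cells without it were not analysed here. The labels state no radiation dose, no donor species for the plasma, and nothing that shows the libraries of a group to be separate cultures, so a p-value covers no more than the spread between libraries, and part or all of that spread may be technical.

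The proteasome breaks down proteins that carry a ubiquitin tag. Its 20S core is a barrel of alpha rings, which form the gate, and beta rings, whose subunits Psmb5, Psmb6 and Psmb7 hold the proteolytic sites. The 19S regulatory particle caps the barrel: a ring of ATPases (Psmc genes) unfolds the substrate, while base and lid subunits without ATPase (most Psmd genes) bind ubiquitin and cut it off. Dedicated chaperones assemble core and cap, and the transcription factors Nfe2l1 and Nfe2l2 are known to switch on subunit genes through antioxidant response elements. Interferon signalling is known to induce Psmb8, Psmb9 and Psmb10, which replace the standard catalytic subunits, and the Psme1 and Psme2 ring, together forming the immunoproteasome that favours peptides for display on MHC class I.

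Levels are in FPKM (fragments scaled to transcript length and library size), which correct for length and so can be compared between genes. Columns summed to between 299310 and 313048 FPKM in exosome libraries and between 296751 and 306240 FPKM in PBS libraries. The authors' deposited mean normalized counts added up to 19800000 per library with exosomes and 20300000 with PBS. All 8 fibroblast markers were found, with a summed level of 5968 to 6309 FPKM in exosome libraries and 5062 to 5195 FPKM in PBS libraries. Of 11 leukocyte markers, summed levels were 2.29 to 3.2 FPKM with exosomes and 3.73 to 5.03 FPKM with PBS, with Cd3e and H2-Ab1 among those at 0 in all libraries. Of 5 platelet markers they were 3.28 to 4.18 FPKM and 2.63 to 4.43 FPKM, with Gp1ba and Gp9 at 0. Among them, Itga2b had 2.93, 2.7 and 2.76 FPKM with exosomes, against 1.57, 2.36 and 1.77 FPKM with PBS. It was raised in the limma test described below (adjusted p = 0.00862). Pf4 and Ppbp overlapped between the groups and were too low to test. Of the 3 erythroid markers found among 5, summed levels were 0 to 1.32 FPKM with exosomes and 0 to 0.563 FPKM with PBS, with Alas2 at 0.

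Promoter windows, the 250 bases before the annotated start, were available from RefSeq (GRCm38.p6) for 42 of the 50 genes. The core of the antioxidant response element, TGACNNNGC on either strand, was present in 5 of the 42 windows (11.9%), against 11.5% of all 27025 genes with a window. The 5 sites are shown because they match the core of the element through which Nfe2l1 and Nfe2l2 are known to act on subunit genes. The element is in capitals, in the reading direction of the gene, with up to 10 bases on each side.
Psmb5: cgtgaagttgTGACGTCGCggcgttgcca
Psmb6: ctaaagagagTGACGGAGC
Psmc6: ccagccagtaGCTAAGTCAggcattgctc
Psmd9: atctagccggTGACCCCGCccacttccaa
Psmd12: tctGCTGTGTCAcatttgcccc
These stretches lie at chr14:54618024-54618052 (Psmb5, minus strand), chr11:70525338-70525356 (Psmb6, plus), chr14:45329587-45329615 (Psmc6, plus), chr5:123228149-123228177 (Psmd9, plus) and chr11:107479278-107479299 (Psmd12, plus). The capitals begin 47 bases before the start of Psmb5, 9 before Psmb6, 31 before Psmd9, 227 before Psmc6 and 247 before Psmd12. In Psmc6 and Psmd12 the element reads on the other strand. A match describes the letters and does not show that a factor binds there.

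Genes of the standard proteasome moved little, and where they moved it was mostly downward and mostly in the 19S particle. Of the 44 genes, 42 reached the level needed for testing (a minimum of 1 FPKM in at least 3 libraries), 13 were lowered, 4 were raised and 25 did not pass an adjusted p of 0.05 in limma's test across 10274 genes. The lowered genes were 31% of the 42, against 18.4% of all genes tested, and the raised genes were 9.52% of the 42, against 25.4% of all genes tested. The median log2 change of FPKM + 1, exosomes minus PBS, was -0.04 over the 42 genes and 0.04 over all tested genes. Of the 42, 22 lay below 0 and 20 above it. In 14 of the 42, all 3 exosome values lay under all 3 PBS values, which happened in 23.5% of all tested genes. In 5 the exosome values all lay above, against 32% of all tested genes. Changes were small: the median absolute log2 change was 0.19 among the 13 lowered genes and 0.29 among all genes that passed the test in either direction. The count of lowered genes was 8 without PBS replicate 1. Raised genes numbered only 1 without PBS replicate 1, without exosomes replicate 1 or without exosomes replicate 3, and 2 without PBS replicate 2. The shares of all genes called with a library left out are not given here. In a culture, fewer cells of a type and less RNA per cell cannot be told apart. The summed fibroblast markers were higher in every exosome library, but the 8 differed: Col1a1, Col1a2, Col3a1 and Pdgfra were raised, Pdgfrb and S100a4 were lowered, and Vim and Thy1 did not pass. Their part in these changes was not tested.

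**Figure D1:**
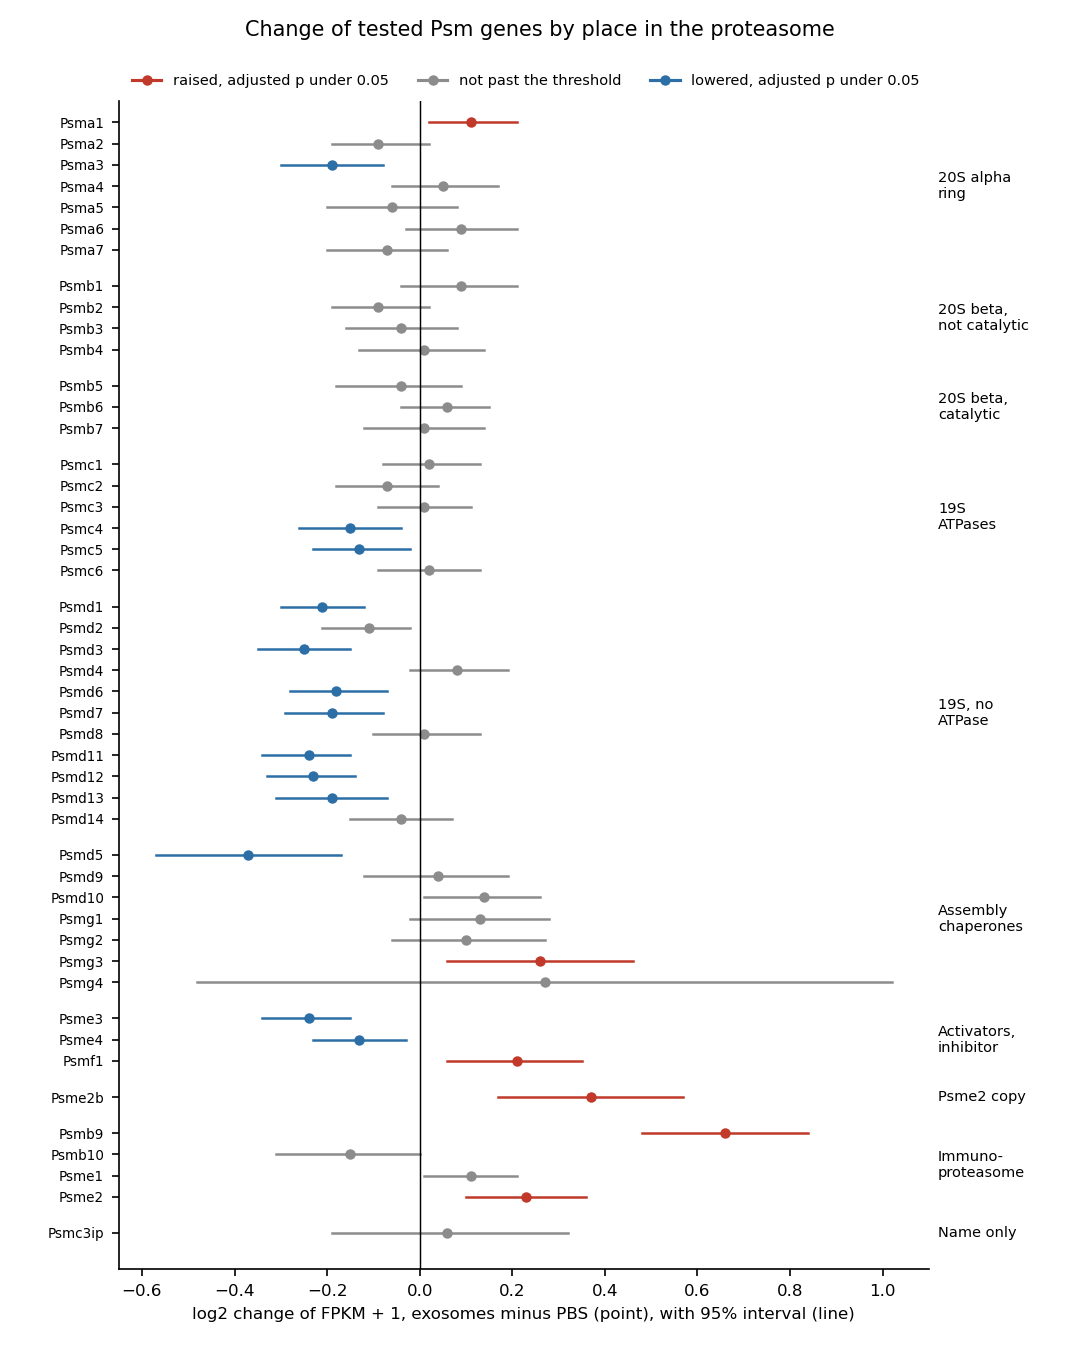
Log2 change of FPKM + 1, exosomes minus PBS, of each tested Psm gene (point) with its 95% interval (line), ordered from the 20S core at the top to the name match at the bottom, in red where raised, blue where lowered and grey where neither. Blue points gather among the 19S genes without ATPase, where 7 of 11 were lowered (63.6%, against 18.4% of all genes tested). The 7 standard beta subunits are all grey.

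Of the 14 tested standard subunits of the 20S core, 1 was lowered and 1 was raised (7.14% each, against 18.4% lowered and 25.4% raised among all genes tested), with a median log2 change of -0.02. The 3 standard catalytic subunits had overlapping groups and intervals of the log2 change that include 0. Psmb5, the chymotrypsin-like subunit, had 33.3, 31.6 and 35.0 FPKM in exosome libraries, against 37.3, 32.2 and 33.7 FPKM in PBS libraries (log2 change -0.04, 95% interval -0.18 to 0.09). Psmb6, the caspase-like subunit, had 88.1, 81.9 and 85.6 FPKM with exosomes, against 82.1, 81.2 and 81.9 FPKM with PBS (log2 change 0.06, interval -0.04 to 0.15). Psmb7, the trypsin-like subunit, had 50.5, 45.8 and 53.0 FPKM with exosomes, against 47.3, 51.1 and 49.3 FPKM with PBS (log2 change 0.01, interval -0.12 to 0.14). Changes within those intervals were not detectable with these libraries. The other beta subunits, which are structural, had log2 changes of 0.09 (Psmb1), -0.09 (Psmb2), -0.04 (Psmb3) and 0.01 (Psmb4). They include the most abundant transcripts of the set, as Psmb1 and Psmb4 averaged 152 FPKM each and Psmb2 144 FPKM over the 6 libraries.

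In the alpha ring, which gates the barrel, 5 of 7 tested genes did not pass. The 1 lowered and the 1 raised gene were 14.3% each, against 18.4% lowered and 25.4% raised among all genes tested. Psma3 had 21.2, 19.8 and 20.6 FPKM in exosome libraries, against 24.4, 23.2 and 23.0 FPKM in PBS libraries. Its exosome values all lay lower, and it fell by 0.19 on the log2 scale (SE 0.05, adjusted p = 0.0109). The call was lost without PBS replicate 1 (adjusted p = 0.0509). Psma1 had 66.5, 67.9 and 68.7 FPKM with exosomes, against 64.2, 61.1 and 62.0 FPKM with PBS, a log2 change of 0.11 (SE 0.04, adjusted p = 0.0461). Its groups did not overlap either, but it stood closest to the threshold of the raised genes, and in 8 of 12 alternative settings the call was lost (adjusted p up to 0.138). The log2 changes of the others were -0.09 (Psma2), 0.05 (Psma4), -0.06 (Psma5), 0.09 (Psma6) and -0.07 (Psma7). Psma8, the alpha subunit of the testis, was listed at 0.0239 FPKM in exosomes replicate 1 and at 0 in the other libraries. Psmb11, the beta subunit of the thymus, was listed at 0 in all 6.

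Of the 13 lowered genes, 9 encode the 19S particle. Of its 17 genes, 9 were lowered (52.9%, against 18.4% of all genes tested) and 0 were raised at the adjusted threshold of limma. Even at an unadjusted p under 0.05 limma had 0 raised, a threshold that the 25.4% of all genes called raised also pass. The authors' deposited table has 0 raised and 10 lowered among the 17, against 12.4% raised and 13.5% lowered of all genes with an adjusted p in it. Those include genes too low to be tested here, so the sets are not alike. Among the 6 ATPases, 2 were lowered (33.3%, against 18.4% of all genes tested). Psmc4 had 57.0, 54.7 and 53.2 FPKM in exosome libraries, against 64.1, 59.3 and 60.0 FPKM in PBS libraries, and fell by 0.15 on the log2 scale (SE 0.05, adjusted p = 0.0279). Psmc5 had 53.5, 53.5 and 51.7 FPKM with exosomes, against 60.6, 55.2 and 58.0 FPKM with PBS, and fell by 0.13 (SE 0.05, adjusted p = 0.0477). In both genes every exosome library lay under every PBS library, as in 23.5% of all genes tested. Both calls were lost in part of the alternatives: 3 of 12 for Psmc4, with an adjusted p up to 0.114, and 7 of 12 for Psmc5, with an adjusted p up to 0.178. The other ATPases had log2 changes of 0.02 (Psmc1), -0.07 (Psmc2), 0.01 (Psmc3) and 0.02 (Psmc6), with overlapping groups. Psmc3ip had 4.7 ± 0.519 FPKM with exosomes and 4.49 ± 0.846 FPKM with PBS (SD, n = 3 each).

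Among the 11 base and lid genes without ATPase, 7 were lowered (63.6%, against 18.4% of all genes tested), with a median log2 change of -0.19. In 8 of the 11 all exosome values lay under all PBS values (against 23.5% of all genes tested). In Psmd4 they all lay above (against 32%). The lowered genes are 6 subunits of the lid and the large base subunit Psmd1. Psmd3, a lid subunit, had 56.8, 53.6 and 52.8 FPKM in exosome libraries, against 65.0, 63.7 and 66.5 FPKM in PBS libraries, and fell by 0.25 on the log2 scale (SE 0.04, adjusted p = 0.00173). Psmd11, a lid subunit known from human embryonic stem cells to promote assembly, had 37.9, 37.1 and 38.5 FPKM with exosomes, against 46.0, 43.7 and 44.9 FPKM with PBS, and fell by 0.24 (SE 0.04, adjusted p = 0.0018). Psmd12, also of the lid, had 42.5, 40.6 and 40.8 FPKM with exosomes, against 49.5, 48.6 and 47.9 FPKM with PBS, and fell by 0.23 (SE 0.04, adjusted p = 0.00198). In these 3 genes the gap between the groups was wider than the range within either group.

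Psmd1, which joins the base to the lid, had 68.3, 70.5 and 69.6 FPKM in exosome libraries, against 82.7, 80.2 and 79.3 FPKM in PBS libraries, and fell by 0.21 on the log2 scale (SE 0.04, adjusted p = 0.0026). Psmd7, the partner of the deubiquitinase Psmd14, had 65.1, 64.2 and 60.2 FPKM with exosomes, against 73.4, 70.3 and 72.1 FPKM with PBS, and fell by 0.19 (SE 0.05, adjusted p = 0.00933). Psmd6 had 33.4, 35.7 and 35.4 FPKM with exosomes, against 38.8, 39.1 and 40.5 FPKM with PBS, and fell by 0.18 (SE 0.05, adjusted p = 0.0113). In all 3 genes the exosome values all lay lower, as in 23.5% of all genes tested. Psmd13 had 38.3, 34.2 and 34.6 FPKM with exosomes, against 42.0, 40.6 and 39.9 FPKM with PBS, and fell by 0.19 (SE 0.05, adjusted p = 0.0164). Its exosome values were lower throughout, with replicate 1 closest to the PBS libraries, and the call was lost without PBS replicate 1 (adjusted p = 0.0658), exosomes replicate 2 (0.0655) or exosomes replicate 3 (0.0584).

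Of the 4 base and lid genes that did not pass, Psmd2 lay at the threshold. Psmd2, the other large base subunit and a docking site for ubiquitin carriers, had 89.3, 86.8 and 91.0 FPKM in exosome libraries, against 98.7, 94.1 and 96.7 FPKM in PBS libraries (log2 change -0.11, SE 0.04, adjusted p = 0.0505). In the authors' deposited table its fold of 0.894 passed, with an adjusted p of 0.0248. Psmd14, which cuts ubiquitin from the substrate, had 35.1 ± 0.998 FPKM with exosomes and 36.1 ± 1.58 FPKM with PBS (SD, n = 3 each, log2 change -0.04, 95% interval -0.15 to 0.07). Psmd4, a ubiquitin receptor, had 42.0, 39.6 and 38.5 FPKM with exosomes, against 38.3, 36.6 and 38.2 FPKM with PBS (log2 change 0.08, adjusted p = 0.188). Psmd8 had 61.7 ± 1.4 FPKM and 61.1 ± 3.56 FPKM (log2 change 0.01).

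**Figure D2:**
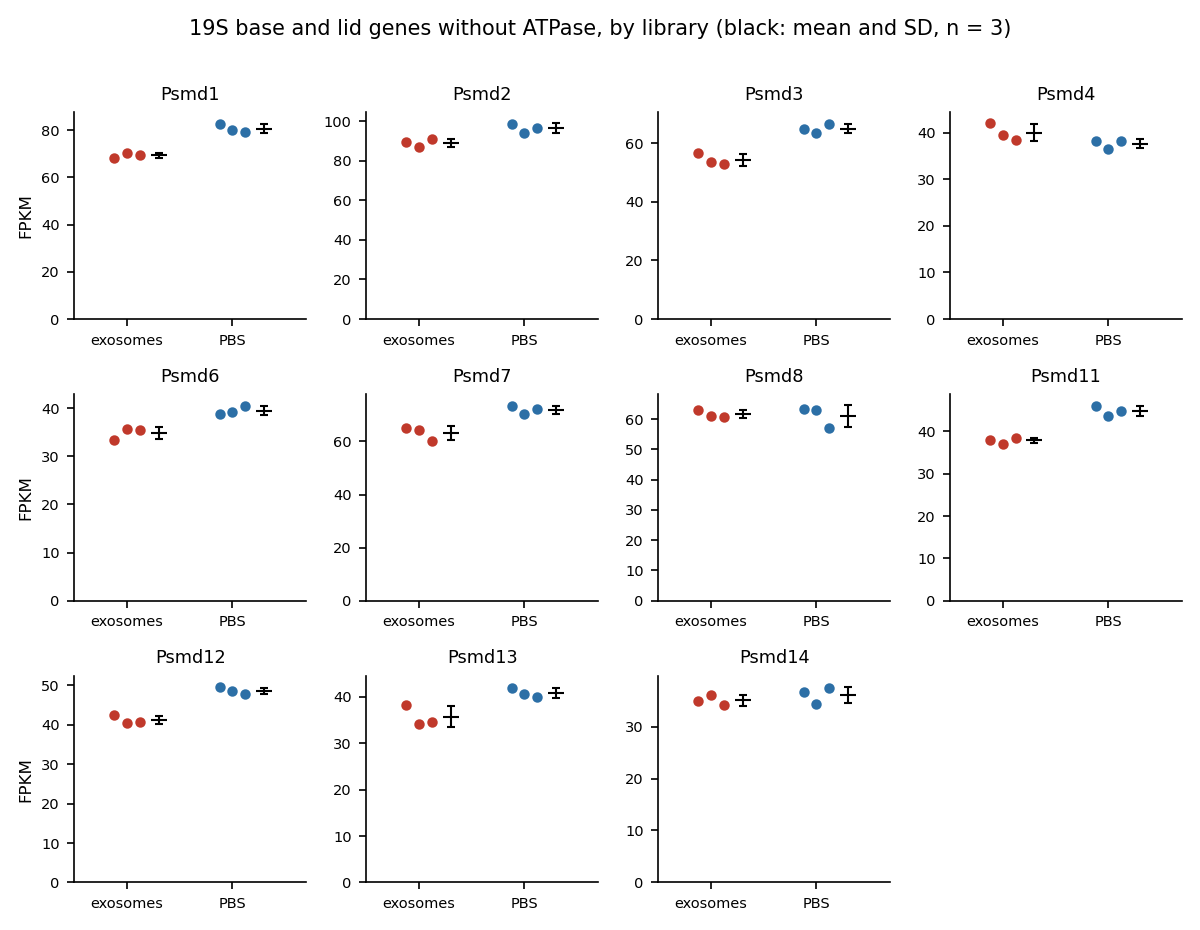
FPKM of the 11 base and lid genes without ATPase in each exosome library (red) and PBS library (blue), with mean and SD in black (n = 3 each) and axes from 0. The 3 red points lie under the 3 blue points in 8 panels, over them in Psmd4, and among them in Psmd8 and Psmd14. Among all genes tested, 23.5% had all exosome values lower and 32% had them all higher.

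The levels were also summed over subunits. The base and lid genes without ATPase added up to 572, 559 and 556 FPKM in exosome libraries, against 635, 614 and 620 FPKM in PBS libraries, a difference of -9.72%. The standard core genes added up to 1162, 1100 and 1183 FPKM with exosomes, against 1182, 1132 and 1125 FPKM with PBS, a difference of 0.189%. As a percent of the core sum, the base and lid sum was 49.21%, 50.88% and 46.99% with exosomes, against 53.68%, 54.24% and 55.17% with PBS. The groups did not overlap in this ratio, in which any scaling of a whole library cancels out. The ATPase sum was 353, 339 and 347 FPKM with exosomes, against 369, 349 and 354 FPKM with PBS, with overlapping groups. As a percent of the core sum it was 30.35%, 30.79% and 29.32% with exosomes, against 31.19%, 30.84% and 31.51% with PBS, where the groups did not overlap but lay close. No test was run on these sums.

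**Figure D3:**
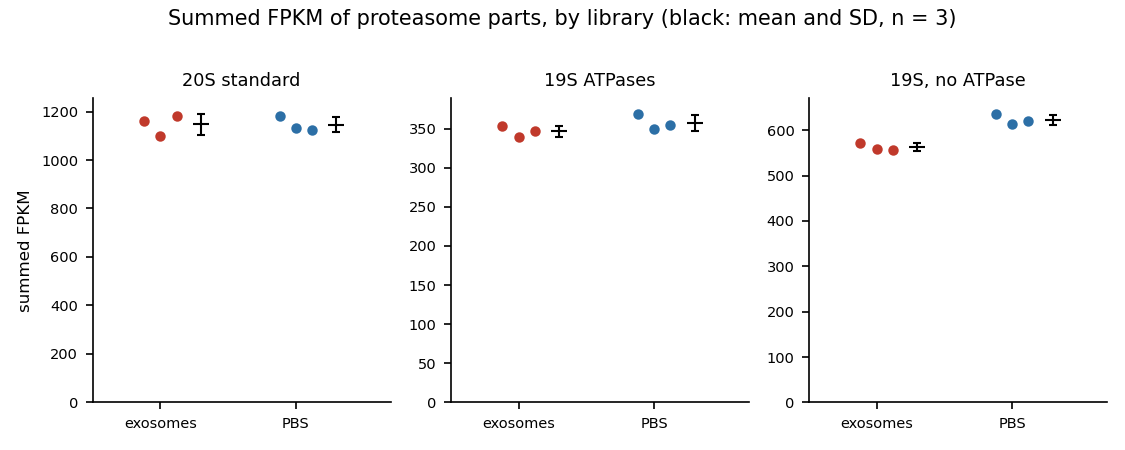
Summed FPKM of the standard 20S core genes, the 19S ATPases and the 19S genes without ATPase in each exosome library (red) and PBS library (blue), with mean and SD in black (n = 3 each) and axes from 0. The groups overlap for the core and the ATPases and are apart in the right panel, at 556 to 572 FPKM with exosomes and 614 to 635 FPKM with PBS.

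Of the 7 assembly chaperones, 1 was lowered and 1 was raised. These were 14.3% each, under the 18.4% lowered and 25.4% raised among all genes tested. Psmd5, a chaperone of the ATPase ring that stays off the finished particle, had 43.3, 37.4 and 39.8 FPKM in exosome libraries, against 51.2, 46.3 and 59.7 FPKM in PBS libraries. It fell by 0.37 on the log2 scale (SE 0.09, adjusted p = 0.00944), and PBS replicate 3 stood highest. The other ATPase chaperones did not pass: Psmd9 had a log2 change of 0.04, and Psmd10 (gankyrin) had 13.4 ± 0.875 FPKM with exosomes and 12.1 ± 0.378 FPKM with PBS (SD, n = 3 each, log2 change 0.14, adjusted p = 0.0787). Psmg1 to Psmg4 build the core. Psmg3 had 10.4, 10.2 and 11.9 FPKM with exosomes, against 8.52, 7.97 and 10.2 FPKM with PBS, and passed as raised (log2 change 0.26, SE 0.09, adjusted p = 0.0369) although its groups overlapped at 10.2 FPKM. That call was lost in 6 of 12 alternatives (adjusted p up to 0.127), and Psmg3 shares exons on its own strand with Gm26938 in the GENCODE annotation, so its level is uncertain. Psmg1 and Psmg2 had log2 changes of 0.13 and 0.10. Psmg4 was the least steady gene of the set, with 12, 9.25 and 14.5 FPKM with exosomes and 13.1, 11 and 5.99 FPKM with PBS.

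The activators Psme3 and Psme4 fell, and the inhibitor Psmf1 rose, by small amounts. Psme3, the nuclear activator ring, had 37.9, 36.9 and 35.8 FPKM in exosome libraries, against 43.7, 44.7 and 43.0 FPKM in PBS libraries, and fell by 0.24 on the log2 scale (SE 0.04, adjusted p = 0.00181). Psme4, a single-chain activator, had 17.5, 17.8 and 17.2 FPKM with exosomes, against 19, 19 and 19.9 FPKM with PBS, and fell by 0.13 (SE 0.05, adjusted p = 0.0377). Psmf1, which inhibits the core in the test tube, had 6.86, 6.43 and 6.84 FPKM with exosomes, against 5.24, 6.25 and 5.61 FPKM with PBS, a log2 change of 0.21 (SE 0.07, adjusted p = 0.031). Groups did not overlap in any of these 3 genes, but exosome values all lay lower in 23.5% and all higher in 32% of all genes tested. The calls of Psme4 and Psmf1 were each lost in 7 of 12 alternatives, with an adjusted p up to 0.117 and 0.118. That of Psme3 was kept in all 12.

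Of the 5 immunoproteasome genes, 4 were tested: Psmb9 and Psme2 were raised (50% of 4 genes, against 25.4% of all genes tested), 0 were lowered (against 18.4%), and Psmb10 and Psme1 did not pass. At an unadjusted p under 0.05 limma also had 0 lowered, a threshold that the 18.4% of all genes called lowered also pass. The authors' deposited table has 0 lowered and 1 raised, Psmb9, against 13.5% and 12.4% of all genes with an adjusted p in it. Psme2 did not pass there (fold 1.12, adjusted p = 0.168). All genes with an adjusted p in that table include ones too low to be tested here, so the sets are not alike. Psmb9, which replaces Psmb6, had 1.60, 1.28 and 1.56 FPKM in exosome libraries, against 0.564, 0.497 and 0.640 FPKM in PBS libraries. Every exosome library had more than any PBS library, the means were 1.48 ± 0.177 FPKM and 0.567 ± 0.0715 FPKM (SD, n = 3 each), and the mean was 2.61-fold higher. On the log2 scale of FPKM + 1, which understates the change of low genes, the change was 0.66 (SE 0.08, adjusted p = 0.000217), and 1.69% of tested genes had a higher one. Psmb9 reached the level for testing only through its exosome libraries, so that it had to be higher there to be tested. Its call, its rank and the share of 50% above are not free of that selection. Without any 1 exosome library it dropped out and Psme2 was the 1 raised gene. With no filter on low values, limma called 2 of 5 immunoproteasome genes raised, and the adjusted p of Psmb9 was 0.00179. The authors' deposited table, which holds counts, gives it mean normalized counts of 36.8 with exosomes and 15.5 with PBS, a fold of 2.37 and an adjusted p of 0.00573. As a percent of Psmb6, its standard counterpart, Psmb9 came to 1.82%, 1.56% and 1.82% with exosomes, against 0.686%, 0.612% and 0.781% with PBS.

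The other catalytic immunoproteasome subunits were not called. Psmb8, which replaces Psmb5, was listed at 0, 0.0783 and 0.0414 FPKM in exosome libraries, against 0.0435, 0.0442 and 0.138 FPKM in PBS libraries, and was too low to test. The authors' deposited table gives it mean normalized counts of 1.22 with exosomes and 2.78 with PBS. Psmb10, which replaces Psmb7, had 2.67, 2.23 and 2.52 FPKM with exosomes, against 2.93, 2.94 and 2.71 FPKM with PBS. Its exosome values all lay lower, but the log2 change of -0.15 (SE 0.07) did not pass (adjusted p = 0.102).

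Psme1 and Psme2 form the activator ring of the immunoproteasome. Psme2 had 28.0, 26.3 and 30.2 FPKM in exosome libraries, against 22.8, 24.1 and 24.5 FPKM in PBS libraries, and rose by 0.23 on the log2 scale (SE 0.06, adjusted p = 0.00999). Psme1 had 32.5, 30.2 and 31.4 FPKM with exosomes, against 29.2, 29.2 and 28.6 FPKM with PBS, a log2 change of 0.11 (SE 0.04, adjusted p = 0.0745). In both genes the exosome values all lay higher, as in 32% of all genes tested. As a percent of Psme3, the activator that fell, Psme2 was 73.8%, 71.1% and 84.5% with exosomes, against 52.2%, 53.8% and 56.9% with PBS. The mean of this ratio was 40.8% higher with exosomes, while that of Psme2 itself was 18.3% higher. As Psme2 was called raised and Psme3 lowered in the same libraries, the ratio had to differ and is no further support. Psme2b, a near-identical copy of Psme2 counted in the standard set, had 6.78, 6.99 and 8.76 FPKM with exosomes, against 5.96, 5.30 and 5.4 FPKM with PBS, a log2 change of 0.37 (SE 0.09, adjusted p = 0.00801). Reads may be split between both copies, so the level and the change of each are uncertain.

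**Figure D4:**
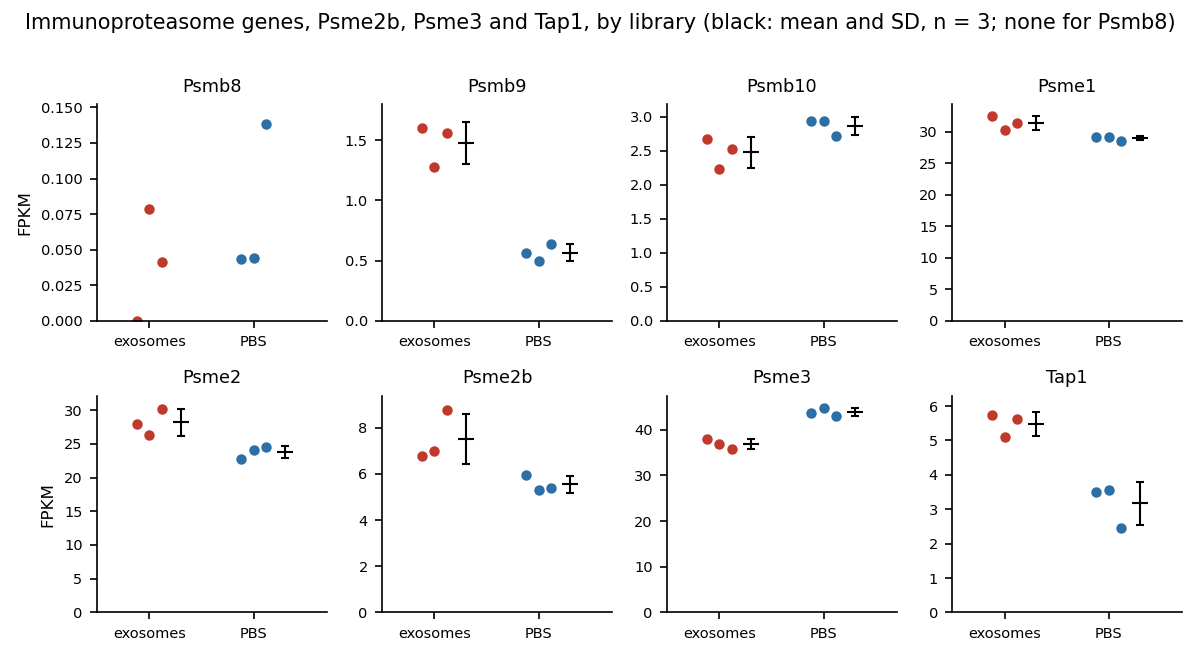
FPKM of the 5 immunoproteasome genes, of Psme2b, Psme3 and of Tap1 in each exosome library (red) and PBS library (blue), with mean and SD in black except for Psmb8 (n = 3 each) and axes from 0. Psmb9 and Tap1 are higher in every exosome library, Psmb8 lies under 0.15 FPKM in all 6, and Psmb10 and Psme3 are lower with exosomes.

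Psmb9 lies head to head with Tap1, which encodes a chain of the pump that carries peptides to MHC class I, and the order on mouse chromosome 17 is Psmb9, Tap1, Psmb8, Tap2. The stretch of 225 bases between the annotated starts of Psmb9 and Tap1 (chr17:34187331-34187555, GRCm38.p6, RefSeq) is shown because both genes rose and share it. It is given on the minus strand, in the reading direction of Psmb9, and capitals mark the CCAAT box, read here as ATTGG.
Psmb9 to Tap1: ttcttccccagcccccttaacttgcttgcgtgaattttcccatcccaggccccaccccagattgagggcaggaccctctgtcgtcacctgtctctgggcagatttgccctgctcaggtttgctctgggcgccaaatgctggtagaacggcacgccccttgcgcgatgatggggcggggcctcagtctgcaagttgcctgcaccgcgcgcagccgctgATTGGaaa
Tap1 had 5.73, 5.09 and 5.63 FPKM in exosome libraries, against 3.51, 3.55 and 2.45 FPKM in PBS libraries, and rose by 0.65 on the log2 scale (SE 0.10, adjusted p = 0.0012). Exons of Psmb9 and Tap1 overlap on opposite strands in GENCODE, and strand use in the counting is not given in the sources at hand, so the share of reads that belongs to each is uncertain.

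Other motifs were searched in the same windows. The CCAAT box of NF-Y, searched on both strands, was in 15 of the 42 windows (35.7%), against 37.5% of all genes. The gamma interferon activated site, TTCNNNGAA, was in 2 (4.76%, Psmb8 and Psmg1), against 8.13%. The interferon stimulated response element, searched as GAAA blocks 2 bases apart, was in 3 (7.14%, Psmb3, Psmd4 and Psmd9), against 3.46%. None of the last 2 motifs was found in the stretch printed for Psmb9 and Tap1, nor was the antioxidant element, which says only that these letters are not in it.

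Of 13 genes of antigen presentation and interferon signalling, 12 were tested, 6 were raised (50%, against 25.4% of all genes tested) and 1 was lowered (8.33%, against 18.4%), with a median log2 change of 0.14. Tap2 had 25.4, 22.3 and 23.8 FPKM in exosome libraries, against 19.6, 19.6 and 18.8 FPKM in PBS libraries, and rose by 0.29 on the log2 scale (adjusted p = 0.00277). Tapbp, which bridges the pump to MHC class I, averaged 85.5 ± 5.35 FPKM with exosomes and 74.5 ± 3.82 FPKM with PBS (SD, n = 3 each), a log2 change of 0.20 (adjusted p = 0.0196). The call of Tapbp was lost without PBS replicate 1 (adjusted p = 0.0775) or exosomes replicate 1 (0.0723), and the authors' deposited table has a fold of 1.09 with an adjusted p of 0.314. Irf1, an activator of Psmb9 and Tap1, did not pass, at 9.79 ± 0.532 FPKM with exosomes and 9.29 ± 1.06 FPKM with PBS (adjusted p = 0.476). B2m, the light chain of MHC class I, did not pass either, at 538 ± 28.9 FPKM and 514 ± 26.6 FPKM (adjusted p = 0.389). Stat2 and Irf9 were also raised and Irf2 was lowered (all 3 named after their values were seen). Immune cells also express the immunoproteasome. The leukocyte marker sum was 2.29 to 3.2 FPKM with exosomes and 3.73 to 5.03 FPKM with PBS. Cd68 was the largest part of it in exosome libraries, at 1.44, 1.91 and 2.08 FPKM, against 1.54, 2.64 and 1.53 FPKM with PBS. The gap between groups lay in Csf1r, at 0.381, 0.254 and 0.249 FPKM with exosomes, against 1.77, 0.759 and 3.22 FPKM with PBS. Without Csf1r the sums were 1.91, 2.78 and 2.95 FPKM with exosomes, against 1.96, 3.25 and 1.81 FPKM with PBS, and overlapped. Cd74, which serves MHC class II, had 0.408, 0.44 and 0.696 FPKM with exosomes, against 0.194, 0.286 and 0.134 FPKM with PBS. Cd79a went the other way, at 0.0359, 0.0316 and 0 FPKM with exosomes, against 0.0691, 0.0675 and 0.0709 FPKM with PBS. The part of other cells in these results was not tested.

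Of genes that work with the proteasome outside the Psm names, more were lowered than raised. Of 46 names, 41 were found and tested, 16 were lowered (39%, against 18.4% of all genes tested), 3 were raised (7.32%, against 25.4%) and 22 did not pass, with a median log2 change of -0.09. The controllers of subunit genes went in opposite directions. Nfe2l1, the factor that restores subunit expression when the proteasome is inhibited, had 71.7, 70.0 and 70.0 FPKM in exosome libraries, against 54.8, 55.0 and 56.7 FPKM in PBS libraries, and rose by 0.34 on the log2 scale (SE 0.04, adjusted p = 0.000186). Nfe2l2, the factor of the oxidative stress response, had 52.3, 49.2 and 48.0 FPKM with exosomes, against 66.9, 69.0 and 64.8 FPKM with PBS, and fell by 0.42 (SE 0.05, adjusted p = 0.000163). In both genes the gap between groups was wider than the range within them. Ddi2, the protease that activates Nfe2l1, averaged 9.04 ± 0.465 FPKM with exosomes and 11.2 ± 0.869 FPKM with PBS (SD, n = 3 each) and fell by 0.28 (adjusted p = 0.00626; it was named after its values were seen). Of the 5 genes with a match to the antioxidant element core printed above, 1 was lowered (Psmd12) and 0 were raised, against 18.4% and 25.4% of all genes tested. Psmb5, Psmb6, Psmc6 and Psmd9 did not pass. The lowered count is near the share of all genes and is no result about the element.

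Among subunits and assembly factors without a Psm name, Adrm1, a ubiquitin receptor of the 19S base, had 44.1, 38.6 and 41.9 FPKM in exosome libraries, against 54.4, 46.9 and 55.6 FPKM in PBS libraries, and fell by 0.32 on the log2 scale (SE 0.07, adjusted p = 0.00575). Pomp, the chaperone of beta ring assembly, had 112, 106 and 108 FPKM with exosomes, against 125, 117 and 114 FPKM with PBS (log2 change -0.12, adjusted p = 0.0656). Shfm1, a small lid subunit also called Sem1, averaged 217 ± 16.7 FPKM with exosomes and 206 ± 5.96 FPKM with PBS (log2 change 0.08, adjusted p = 0.312). The lowered genes of smallest p included 3 that deliver or shuttle substrates. Zfand2a, a stress-induced regulator of the 19S cap, averaged 8.16 ± 0.527 FPKM with exosomes and 12.4 ± 0.617 FPKM with PBS and fell by 0.55 (adjusted p = 0.000123). Sqstm1, a ubiquitin receptor of autophagy and a known target of Nfe2l2, averaged 152 ± 5.82 FPKM and 191 ± 9.71 FPKM and fell by 0.32 (adjusted p = 0.00113). Ubqln4, a shuttle to the proteasome, averaged 18.8 ± 0.332 FPKM and 24 ± 1.61 FPKM and fell by 0.34 (adjusted p = 0.00117). Besides Nfe2l1, the raised genes were Nfyb, a chain of the CCAAT-binding factor NF-Y (12.4 ± 0.24 FPKM with exosomes and 10.4 ± 0.215 FPKM with PBS, log2 change 0.23, adjusted p = 0.00368), and Rps27a, which encodes ubiquitin fused to a ribosomal protein (469 ± 47.6 FPKM and 407 ± 16.7 FPKM, log2 change 0.20, adjusted p = 0.0451). The call of Rps27a was lost in 8 of 12 alternatives (adjusted p up to 0.129), and the authors' deposited table has a fold of 1.11 with an adjusted p of 0.326. The other NF-Y chains, named after their values were seen, were not raised: Nfya had a log2 change of -0.04 (adjusted p = 0.564), and Nfyc fell by 0.14 (adjusted p = 0.0354), a call lost in 6 of 12 alternatives (adjusted p up to 0.118).

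The authors' deposited table, which rests on counts of the same 6 libraries, was set beside the FPKM test. Of the 47 Psm genes tested here, it has 13 as lowered and 2 as raised at an adjusted p under 0.05, against 13.5% lowered and 12.4% raised among all 15844 genes with an adjusted p in it. Those 15844 include genes too low to be tested here, such as Psma8 and Psmb8. The 47 had to reach the level for testing, so the 2 sets are not alike. The FPKM test called 13 lowered and 6 raised. Both sources shared 12 of the lowered and 2 of the raised genes, Psmb9 and Psme2b, and 0 genes had opposite calls. Psmd2 was called in the authors' deposited table alone and Psme4 in the FPKM test alone, with a fold of 0.901 and an adjusted p of 0.0608 in the authors' deposited table. The raised calls of Psma1, Psmg3, Psmf1 and Psme2 did not pass there: the authors' deposited table has folds of 1.06, 1.15, 1.14 and 1.12, with adjusted p-values of 0.398, 0.34, 0.146 and 0.168. In the authors' deposited table the smallest adjusted p among the 47 belonged to Psmd3, with a fold of 0.794 and an adjusted p of 3.25e-06.

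**Figure D5:**
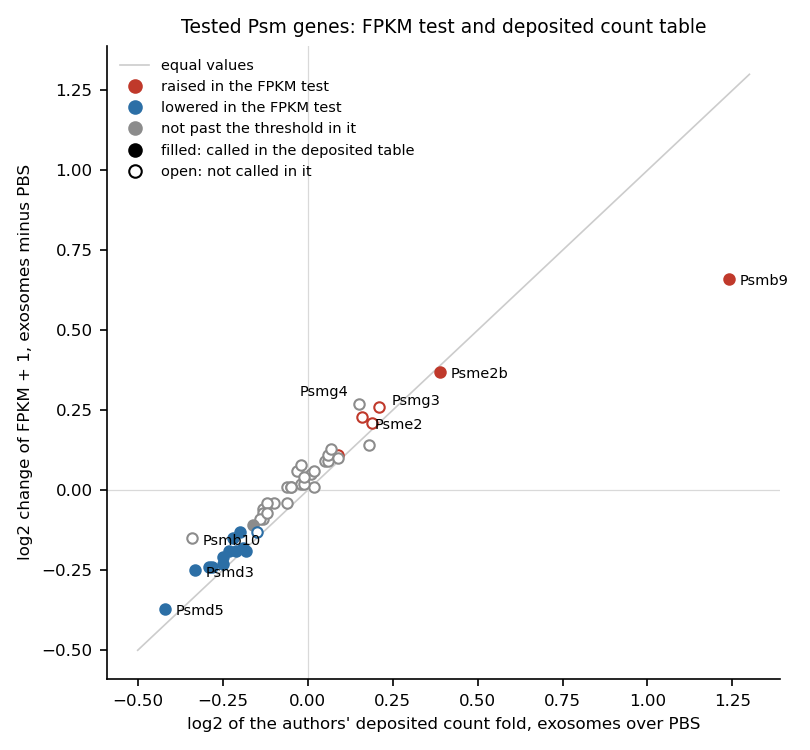
Log2 change of FPKM + 1, exosomes minus PBS (vertical axis), against the log2 of the authors' deposited count fold, exosomes over PBS (horizontal axis), for the 47 tested Psm genes, with both made from the same 6 libraries. Colours give the FPKM call and filled points those called in the deposited table. Psmb9 lies furthest from the line of equal values, at 0.66 on the vertical and 1.24 on the horizontal axis.

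Reads could be shared with a neighbour for some of these genes. In GENCODE, exons of 12 of the 50 genes overlap a gene on the opposite strand, among them 3 lowered genes, Psmd1 (Htr2b), Psmd3 (Gm12356) and Psmd13 (Sirt3). Exons of 4 overlap a gene on the same strand, namely Psmb5 (Mir686), Psmd1 (Gm21972), Psme2b (9930111J21Rik1) and Psmg3 (Gm26938). Their part in the values was not tested.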

How the data were processed

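Per the labels' protocols, total RNA from a mirVana kit was made into TruSeq Stranded mRNA libraries and read from both ends on an Illumina HiSeq. DESeq, Cufflinks, HTSeq, HISAT2, Bowtie2, StringTie, SAMtools, Trimmomatic and the mm9 build are named in the submitters' processing notes, with no version or role. The authors deposited an expression value per gene and library. Its headers say only expression, and the unit was read as FPKM because the notes name Cufflinks, column sums differ and the values scale with length (Spearman 0.77 between transcript length and the deposited mean normalized count per unit of expression, across 8957 genes). The same table holds the authors' mean normalized count of each group (a signal), fold (a ratio of exosomes over PBS) and, also per the file headers, p-value and adjusted p-value. Counts per library were not used here, so no count test was run and the precision behind a single value is that of the 3 libraries. No 2 libraries held identical values (0 of 15 pairs).

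The 10274 genes with a minimum of 1 FPKM in at least 3 libraries were tested on log2(FPKM + 1), pseudocount 1, with limma 3.58.1 in R 4.3.3 (trend and robust options, group as the only term, two-sided, Benjamini-Hochberg adjustment over all genes, threshold 0.05), after a test on simulated data. A fold on this scale understates the change of low genes. The 12 alternatives were another pseudocount, other filters and scalings, leaving out each library, and a replicate term. Every Psm gene was named. Of the partner list, the 4 lowered genes of smallest adjusted p, the raised genes (up to 4, of which there were 3) and 5 set genes were named, and set genes of the antigen presentation list, of which 1 is not reported here. The genes and lists were chosen with earlier results of these data known. Promoter sequences are RefSeq's on GRCm38.p6, another build than the deposited values.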

Additional observations from a re-analysis of the deposited data

How the results depend on the processing

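Of the 19 Psm genes called, 11 kept their call in all alternatives that tested them (Psmd1, Psmd3, Psmd5, Psmd6, Psmd7, Psmd11, Psmd12, Psme2, Psme2b, Psme3 and Psmb9), and 0 changed sign. Psmb9 was tested in 8 of the 12, as it dropped under the filter without any 1 exosome library and at a minimum of 5 FPKM. Lowered standard genes (13) numbered between 8 and 13 when 1 library was left out and 12 to 15 under other filters, scalings and pseudocount. The base and lid genes lowered (7) numbered 6 to 8 throughout. Raised standard genes (4) numbered 1 to 3 with 1 library left out, 2 with no filter on low values and 1 under median ratio scaling. Lowered core genes (1) numbered 0 to 1 with 1 library left out and 2 under median ratio scaling. Raised immunoproteasome genes (2) numbered 1 to 2 with 1 library left out and 1 at a minimum of 5 FPKM. Lowered partner genes (16) numbered 11 to 20 in all settings. Shares of all genes called are given here for the main setting alone. The counts under the alternatives therefore do not show whether a difference from all genes holds there.

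The correlations of deviations between libraries of the same replicate number were -0.12, -0.02 and -0.29. Between libraries of unlike numbers they lay from -0.19 to 0.29. Deviations from a mean of 3 libraries cancel out within a group, so these values cannot decide whether replicate numbers pair the samples. With a replicate block, 11 standard genes were lowered, 2 were raised, and 7 base and lid genes and 13 partner genes were lowered.

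Some genes changed sign, none of them called; most had a log2 change near 0, while Psmg4 (0.27) had widely scattered libraries. Under median ratio scaling, which sets the median log2 change of all genes to 0.005, these were Psmb4 (-0.03), Psmb7 (-0.022), Psmc1 (-0.011), Psmc3 (-0.023), Psmc6 (-0.014), Psmd8 (-0.021) and Ubb (-0.014). Uba6 came to 0.00 under upper quartile scaling. With 1 library left out the ranges were -0.037 to 0.058 (Psmb4), -0.032 to 0.071 (Psmb7), -0.005 to 0.046 (Psmc1), -0.017 to 0.04 (Psmc3), -0.008 to 0.062 (Psmc6), -0.034 to 0.041 (Psmd8), -0.012 to 0.087 (Ubb), -0.026 to 0.04 (Uba6), -0.116 to 0.003 (Psma5), -0.088 to 0.013 (Psmb5), -0.068 to 0.154 (Psmc3ip), -0.039 to 0.101 (Psmd9), -0.031 to 0.473 (Psmg4), -0.045 to 0.046 (Erap1), -0.019 to 0.092 (H2-D1) and -0.016 to 0.126 (Irf1). Psmd2 passed in 4 alternatives, at an adjusted p of 0.0145 to 0.0472, Psmb2 in 1 (0.0481) and Psmg1 in 1 (0.0192). The causes were not tested. With 3 libraries a group, changes smaller than the printed intervals may go undetected.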
